A study of Mus musculus with 6 samples.

Results

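Open chromatin at 10 genes that move calcium into, out of and between the cell's stores was described in hepatocyte nuclei of mouse liver. The genes were Itpr1, Itpr2, Itpr3, Atp2a2, Atp2b1, Atp2b2, Stim1, Stim2, Orai1 and Mcu. Accessibility was measured by ATAC-seq, an assay in which a transposase inserts sequencing adapters where DNA is open. Peaks of the 6 libraries that shared at least 1 bp were merged into 109853 regions (mouse build mm10, chromosomes 1 to 19 and X). A region was counted for a gene where that gene had the protein-coding span nearest to the region's midpoint, within 50 kb. Regions were thus chosen by a peak in at least 1 library and by position, so the presence of peaks is given as a description. This gave 234 regions at the 10 genes, 199 of them inside a gene span and 35 outside. All mice were male and carried 2 floxed genes, Ncor1, which encodes the nuclear receptor corepressor NCOR1, and another. The control group (3 libraries) received an adeno-associated virus (AAV) with eGFP, and the double knockout group (dKO, 3 libraries) an AAV with Cre recombinase. Livers were taken 5 days after the virus at zeitgeber time 10, that is, 10 h after lights on, and nuclei were sorted for HNF4a, a transcription factor of hepatocytes. The sources used here do not give the promoter that drove Cre, the age of the mice or the number of animals behind a library. The p-values therefore set the difference between the groups against the spread between these libraries only, and that spread may be technical.

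A hepatocyte releases calcium from the endoplasmic reticulum when a hormone such as vasopressin or noradrenaline raises inositol trisphosphate (IP3). IP3 opens the IP3 receptors encoded by Itpr1, Itpr2 and Itpr3. The SERCA pump encoded by Atp2a2 refills the store, and the plasma membrane pumps encoded by Atp2b1 and Atp2b2 drive calcium out of the cell. STIM1 and STIM2 sense an emptied store and open the ORAI1 channel of the plasma membrane, while MCU is the pore through which mitochondria take calcium up. In liver these calcium signals act on glycogen breakdown, glucose output, bile flow and mitochondrial respiration.

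The libraries held 68316 to 84614 peaks, and the level used is the normalized tag count, the tags in a peak scaled to library depth by the authors' peak finder. Low values lay on a regular step of 0.04786 to 0.06076 per library. If a step is 1 tag, a value of 5 stands for 82 to 104 tags and a value of 50 for 823 to 1045. The deposited peaks were narrower in control 1, dKO 1 and dKO 2 than in the other libraries, where they were 166 or 172 bp wide. Of 7 hepatocyte marker genes all 7 had regions, with a summed level of 1141 to 1887 in controls and 1008 to 1167 in dKO. Of their 28 regions called in all libraries, 15 fell in dKO and 0 rose by the test given below. Over all such regions 11.6% fell and 8.19% rose. Of the cholangiocyte markers Krt19, Krt7 and Cftr had no region in any library, and neither did the Kupffer and macrophage markers Cd68 and Vsig4, the stellate marker Dcn or the lymphocyte markers Cd79a and Nkg7. The summed level of the 7 cholangiocyte markers was 309.7 to 353.7 in controls and 292.7 to 407.4 in dKO. That of the 7 endothelial markers was 437.7 to 552.4 and 385.1 to 560.9, of the 6 Kupffer and macrophage markers 26.5 to 41.4 and 20.6 to 38.3, of the 7 stellate and fibroblast markers 111.6 to 138.0 and 88.2 to 137.4, and of the 6 lymphocyte markers 59.4 to 69.3 and 51.7 to 71.7, so each of these lists overlapped between the groups. Their part in the results was not tested.

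The DNA before the gene starts is shown for 4 genes: for Mcu and Stim2, where a region at the start was lower in dKO, for Itpr2, the IP3 receptor gene best known from hepatocytes, and for Atp2b1, which had the highest level at its start. RefSeq promoter windows (250 bases before to 50 after a start, GRCm38.p6, the same build as mm10) were listed for 8 of the 10 genes, with 11 starts in all. Each sequence runs 5′ to 3′ on the gene's strand. In Mcu the capitals mark a match to CAAAGTCCA, a site of the HNF4 type, at chr10:59616797-59616805, 113 bases before the start, and in the others they mark GGGCGG, the GC box, on either strand. The sequences cover chr10:59616693-59616942 (minus strand) for Mcu, chr5:53998273-53998522 (plus) for Stim2, chr6:146502259-146502473 (minus) for Itpr2 and chr10:98914392-98914629 (plus) for Atp2b1.
Mcu: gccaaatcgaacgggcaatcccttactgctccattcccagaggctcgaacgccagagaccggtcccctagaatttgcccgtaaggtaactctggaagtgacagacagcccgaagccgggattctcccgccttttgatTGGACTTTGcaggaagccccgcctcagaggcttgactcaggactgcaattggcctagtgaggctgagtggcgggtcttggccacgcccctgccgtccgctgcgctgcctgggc
Stim2: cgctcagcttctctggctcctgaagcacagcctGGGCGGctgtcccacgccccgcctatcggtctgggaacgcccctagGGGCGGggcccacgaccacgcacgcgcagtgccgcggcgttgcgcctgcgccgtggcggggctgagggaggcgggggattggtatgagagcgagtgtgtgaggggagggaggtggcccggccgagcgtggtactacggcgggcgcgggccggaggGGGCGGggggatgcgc
Itpr2: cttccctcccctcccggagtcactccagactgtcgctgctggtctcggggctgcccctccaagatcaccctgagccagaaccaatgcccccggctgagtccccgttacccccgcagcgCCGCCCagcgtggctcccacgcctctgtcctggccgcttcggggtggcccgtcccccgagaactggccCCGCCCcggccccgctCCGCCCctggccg
Atp2b1: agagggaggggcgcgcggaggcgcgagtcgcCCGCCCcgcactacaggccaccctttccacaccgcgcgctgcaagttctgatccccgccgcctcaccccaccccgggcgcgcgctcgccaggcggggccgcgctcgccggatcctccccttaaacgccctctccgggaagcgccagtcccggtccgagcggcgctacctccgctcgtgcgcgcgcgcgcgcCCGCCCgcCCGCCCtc
The Mcu window was the only one of the 11 with CAAAGTCCA, which 0.475% of all 32851 listed promoter windows held. GGGCGG was found in 9 of the 11 windows, at 7 genes but not Mcu, and in 35.7% of all windows. CCAAT was found in 4 of the 11, at Itpr2, Mcu, Orai1 and Stim2, and in 37.4% of all. None of the 11 held AGGTCA (16.3% of all), the glucocorticoid response element searched as a palindrome (0.00913%), TTGCGCAA (0.183%) or TGACGTCA (1.79%), searched on both strands. GGGCGG and CCAAT were added after the windows had been seen. The windows held 8 to 54 CG dinucleotides against a median of 7 over all windows, with 21 in Mcu and 54 in the first Atp2b1 window. A match is a description of the letters and not of a bound factor.

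Of the 234 regions, 107 (45.7%, against 47.1% of all regions) had a peak in all 6 libraries, called shared regions here, and 32 in 1 library only. The dKO libraries had peaks in 191, 179 and 147 of the 234 and the controls in 175, 138 and 134. The shared regions were compared as log2(normalized tag count + 1), centred on each library's median, by limma with Benjamini-Hochberg adjustment over all 51749 shared regions and a threshold of 0.05. The log2 fold change (dKO minus control) on this scale understates the change of weak regions. Of the 107, 22 rose, 18 fell and 67 did not pass the test, so 37.4% were called, where the background over all shared regions was 19.8% (8.19% higher and 11.6% lower). The genes were chosen with earlier results of these data known, and were in that sense selected on the same dKO against control values, so this share is a description of them. The median log2 fold change was -0.02 over the 107 and -0.02 over all shared regions. The dKO and control values did not overlap at 52 of the 107 regions (48.6%, background 28.4%), which includes all 40 that were called. In bulk nuclei, fewer cells of a type and less accessibility per cell cannot be told apart.

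Mcu, Stim1, Stim2, Itpr1, Itpr2 and Atp2b2 held all 40 calls, and Atp2a2, Atp2b1, Itpr3 and Orai1 held 0 among their 12 shared regions. With 4, 5, 2 and 1 shared regions, these 4 genes had too few to set them apart from the background of 19.8% called. At Atp2b2 the share called was 16.7%, under that background. Stim1 regions were called in 1 direction only (5 higher), Mcu regions almost so (6 higher, 1 lower), and Itpr1 (5 and 8), Itpr2 (3 and 3), Stim2 (2 and 5) and Atp2b2 (1 and 1) had calls in both directions. All 40 had the same sign among the libraries with narrow peaks as among those with wide ones. That was all but fixed in advance, since the dKO and control values overlapped at none of the 40. It therefore tests nothing about peak width. Without dKO 1 the counts fell to 7 higher and 7 lower, and without dKO 2 to 7 and 5. Without centring 13 were higher and 14 lower. Restricted to the 50 regions whose mean reached 20, 9 rose and 7 fell, with fewer regions tested. Shares over all shared regions under these alternatives are not given, so the drop cannot be read as particular to these genes.

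**Figure D1:**
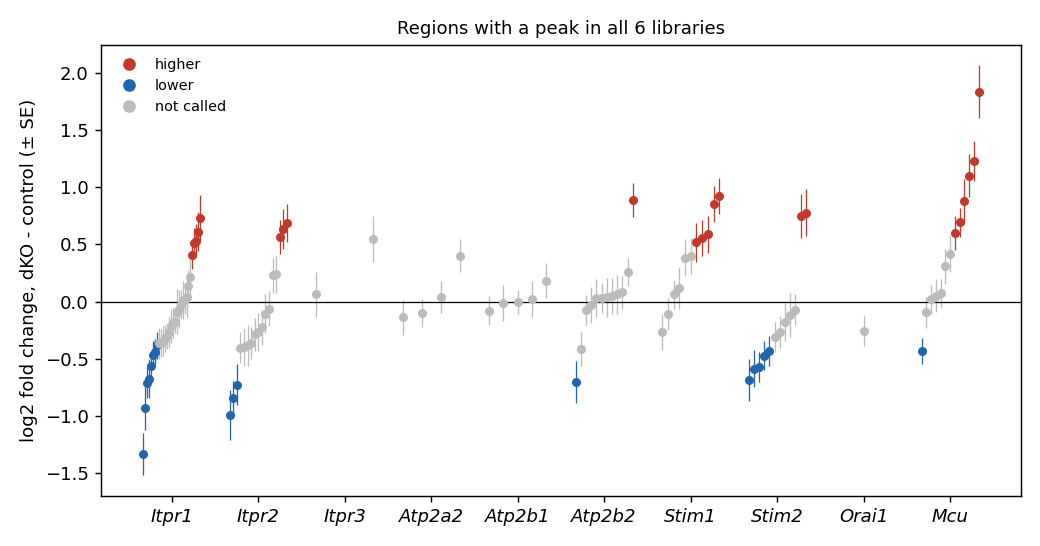
Log2 fold change (dKO minus control, with moderated standard error) of each of the 107 shared regions, by gene, ordered within a gene by its value. Red points rose and blue points fell (limma adjusted p under 0.05), grey points did not pass. Mcu reaches 1.84 and Itpr1 -1.34, while no point of Atp2a2, Atp2b1, Itpr3 or Orai1 is coloured.

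At gene starts the level differed widely between genes. The strongest shared region within 1 kb of a start (for Itpr1 and Atp2a2, of a gene end, since no start was listed for them) had a control mean of 85.1 ± 16.3 normalized tags at Atp2b1, 84.4 ± 0.82 at Itpr1, 75.8 ± 6.0 at Stim2, 53.4 ± 2.5 at Mcu, 51.3 ± 9.4 at Stim1, 51.3 ± 2.6 at Itpr2, 42.0 ± 7.5 at Orai1, 30.8 ± 3.4 at Atp2a2 and 6.85 ± 1.69 at Itpr3 (SD, n = 3 each). In this order the control ranges of neighbours overlapped for Atp2b1 and Itpr1 and from Mcu through Stim1 and Itpr2 to Orai1, and did not overlap elsewhere. These are values per region and not per length. Atp2b2 had no shared region within 1 kb of its 3 listed starts. Itpr3, the IP3 receptor gene typical of bile duct cells, had the weakest start, with 8.14, 7.47 and 4.93 in controls and 6, 5.17 and 9.66 in dKO.

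**Figure D2:**
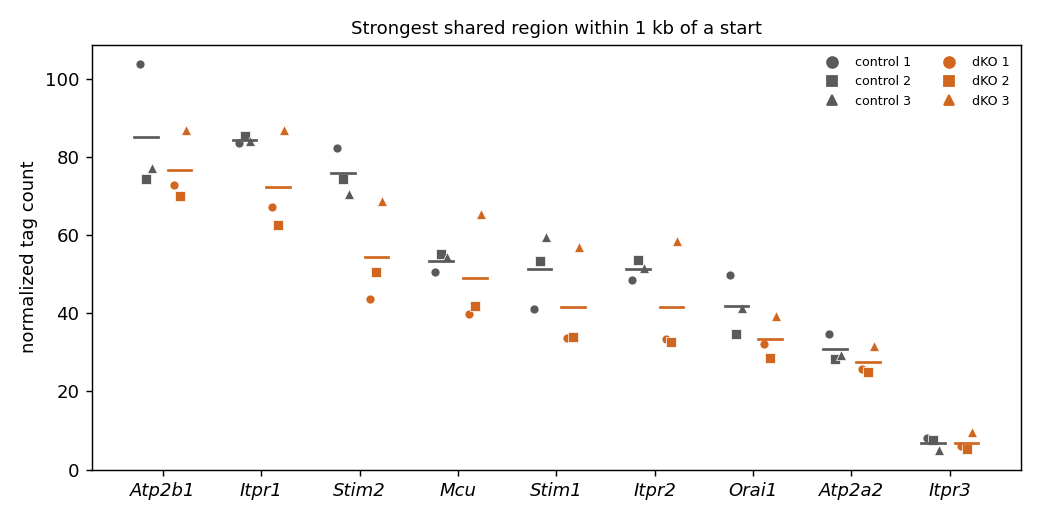
Normalized tag count of the strongest shared region within 1 kb of a start for 9 genes, in control (grey) and dKO (orange) libraries, each point 1 library and each bar a group mean. Genes are ordered by their control mean, from 85.1 at Atp2b1 to 6.85 at Itpr3, and dKO 3 (triangles) is the highest dKO library at all 9.

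Among these 9 regions only that of Stim2 passed the test. At Mcu another region at the start, with a lower control mean than the one counted here, was called lower as well (described below). The dKO 1 and dKO 2 libraries lay below every control at 8 of the 9, all but Itpr3, and dKO 3 lay within or above the controls at 8 of the 9, all but Stim2. At Itpr2, for example, the controls had 48.6, 53.7 and 51.6, dKO 1 and dKO 2 had 33.5 and 32.6 and dKO 3 had 58.5, and the log2 fold change was -0.29 (SE 0.15, limma adjusted p = 0.176). It was called lower only when dKO 3 was left out. Among all shared regions within 1 kb of a start, 10.7% fell and 2.92% rose.

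Mcu, the mitochondrial calcium uniporter gene (chromosome 10, 59446984 to 59617409), had the highest median log2 fold change of the 10 genes, 0.42 over 13 shared regions. Of its 11 shared regions more than 1 kb after the start, 6 rose, 0 fell and 11 had a positive log2 fold change (9 without centring), with a median of 0.60. Over all shared regions inside genes and away from starts, 10.7% rose and 10.5% fell. The strongest rise was 51.9 kb after the start, at 59564663 to 59564898, with 4.47, 6.8 and 4.88 normalized tags in controls and 28.7, 19.6 and 15.5 in dKO. Every dKO library lay above every control there, and the log2 fold change was 1.84 (SE 0.23, limma adjusted p = 0.000752), that is 2.31 between libraries with narrow peaks and 1.19 between those with wider peaks. A pair of neighbouring regions rose further in, at 77.1 and 78.9 kb.

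The region at 59537652 had 10.9, 10.4 and 9.48 in controls and 32.1, 19.5 and 22.8 in dKO (log2 fold change 1.23, SE 0.17, limma adjusted p = 0.00117). Its neighbour at 59539549 was the strongest of the regions that rose, from 19.1, 24.3 and 21.4 to 38.1, 28.5 and 35.7 (0.69, adjusted p = 0.00391). Toward the far end of the gene, 150.9 kb after the start, the region at 59465672 rose from 6.65, 7.18 and 5.1 to 15.4, 14.5 and 12.1 (1.103, adjusted p = 0.00276). These 4 regions kept their call in every alternative that tested them. The other 2, at 59520773 (11.8, 15.3 and 8.63 to 25, 19.8 and 19.3, log2 fold change 0.88) and 59451944 (7.82, 7.99 and 8.41 to 12.8, 10.9 and 12.9, 0.60), lost it without dKO 1 or dKO 2 (limma adjusted p = 0.0572 to 0.0791), the latter also without centring (0.0551).

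The start of Mcu went the other way from its body. The region at 59616677 to 59616978, which covers the start and the HNF4-type match shown above, had 53.4, 48.6 and 50.1 in controls and 32.3, 33.3 and 42 in dKO, with all dKO values below all controls. Its log2 fold change was -0.44 (SE 0.11, limma adjusted p = 0.0164). The call was lost with quantile normalization (0.0697), cyclic loess (0.0559), no centring (0.0532), and without dKO 1 (0.0838) or dKO 2 (0.0646). The next region, 268 bp after the start, had 50.6, 55.3 and 54.4 in controls and 39.7, 42 and 65.4 in dKO and did not pass (-0.10, adjusted p = 0.646).

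**Figure D3:**
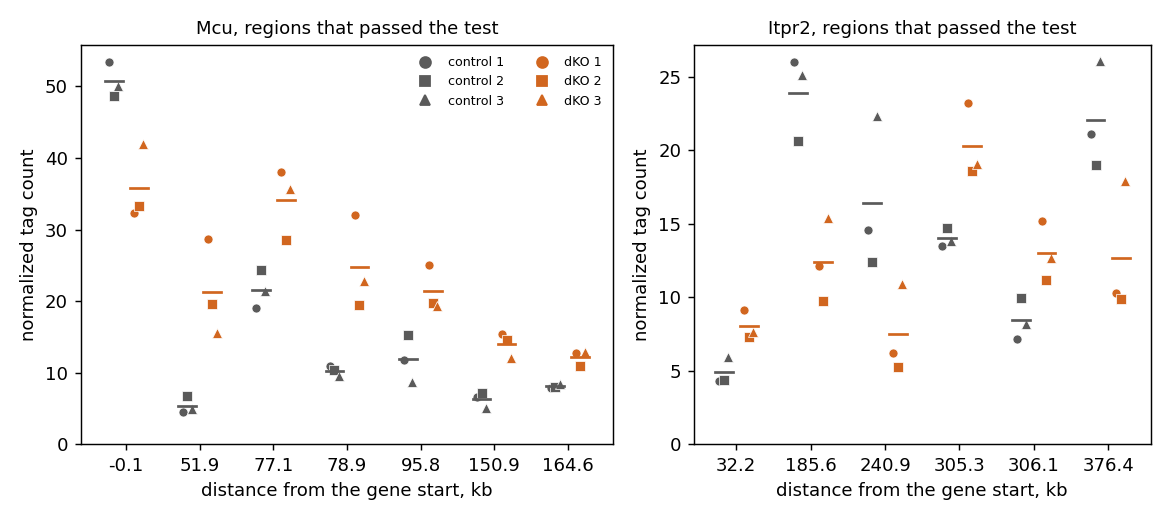
Normalized tag counts per library at the regions of Mcu (left, 7) and Itpr2 (right, 6) that passed the test, by distance from the gene start in kb (points are libraries, bars are group means). At Mcu the start is lower and the 6 regions inside the gene are higher in dKO, with the widest gap at 51.9 kb, and at Itpr2 3 regions are higher and 3 lower.

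The STIM genes, whose products sense the calcium level of the store, had their called regions in different places. Stim1 (chromosome 7, 102261514 to 102437319) had 5 of its 11 shared regions higher in dKO and 0 lower. All 5 lay inside the gene, 18.1 to 149.8 kb after the start. Background shares inside genes and away from starts were 10.7% higher and 10.5% lower. At 102363951 to 102364126 the controls had 16.8, 14.3 and 11.8 and the dKO libraries 29.4, 25 and 25.4, with no overlap (log2 fold change 0.92, SE 0.16, limma adjusted p = 0.00271). At 102310887 the values went from 5.85, 5.27 and 7.12 to 11.1, 10.5 and 12 (0.85, adjusted p = 0.00399), and both regions kept their call in every alternative that tested them. The other 3, at 102285829 (0.59), 102417508 (0.56) and 102313318 (0.52), had smaller log2 fold changes, with control means of 6.26 to 9.43 and dKO means of 9.06 to 14.0. They lost their call without dKO 1 (limma adjusted p = 0.0538 to 0.203) or dKO 2 (0.103 to 0.119) and without centring (0.0672 to 0.118). That at 102313318 also lost it without control 1, control 2 or control 3 (0.0594 to 0.154), when its peaks were summed (0.158), and in 4 other alternatives (0.0667 to 0.122). That at 102285829 lost it without control 1 (0.0662) or control 2 (0.0570), and that at 102417508 without control 3 (0.0910) and with quantile normalization (0.0518) or cyclic loess (0.0558). At the Stim1 start the values were 41, 53.5 and 59.4 in controls and 33.7, 33.9 and 56.9 in dKO, and the region was not called (-0.27, adjusted p = 0.254).

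Stim2 (chromosome 5, 53998523 to 54121057) had most of its called regions before its start. Of the 7 shared regions before or at the start, up to 42361 bp away, 4 fell, 0 rose and 7 had a negative log2 fold change, with a median of -0.44 (-0.27 with quantile normalization). The background outside genes and away from starts was 13.4% lower and 8.35% higher, and within 1 kb of a start 10.7% and 2.92%. At the start itself, in the sequence shown above, the region at 53998264 to 53998463 had 82.4, 74.4 and 70.6 in controls and 43.7, 50.5 and 68.7 in dKO (log2 fold change -0.44, SE 0.13, limma adjusted p = 0.0343). The dKO 3 value was the highest of its group and lay just under the controls. The region 5797 bp before the gene had 38.7, 38.3 and 30.5 in controls and 24, 18.6 and 25.8 in dKO (-0.57, adjusted p = 0.00901). Those at 53985698 (-0.59) and 53957404 (-0.47) fell as well. Inside the gene, a region 36.3 kb after the start rose from 10.4, 8.47 and 13.3 to 20.2, 17.4 and 15.5 (0.75, adjusted p = 0.0154). Another at 54060056 rose from 20.9, 15.7 and 11.9 to 32.1, 26.3 and 22.2 (0.78, adjusted p = 0.0184). A region 110.3 kb after the start fell from 21.4, 23.4 and 23.3 to 10.4, 10.1 and 21.1 (-0.69, adjusted p = 0.0209), where dKO 3 was near the controls. None of the 7 calls at Stim2 held without dKO 2 (limma adjusted p = 0.0666 to 0.130), and without dKO 1 only that at 53992605 did (the others 0.0520 to 0.133). The start call was also lost in 8 other alternatives, among them without control 1 (0.109) or control 2 (0.0674), with quantile normalization (0.0703) and after adding peak width to the model (0.0504), that at 53957404 without control 3 (0.0765), with quantile normalization (0.0713) or cyclic loess (0.0895) and in both alternatives restricted to strong regions (0.0843 and 0.0664), and that at 54060056 without control 3 (0.0608).

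Orai1, the gene of the plasma membrane channel that STIM proteins open, had 7 regions and 1 shared region, 36 bp from its start. The controls had 49.8, 34.8 and 41.4 and the dKO libraries 32.2, 28.6 and 39.4 (-0.26, SE 0.13, limma adjusted p = 0.185), so the groups overlapped.

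**Figure D4:**
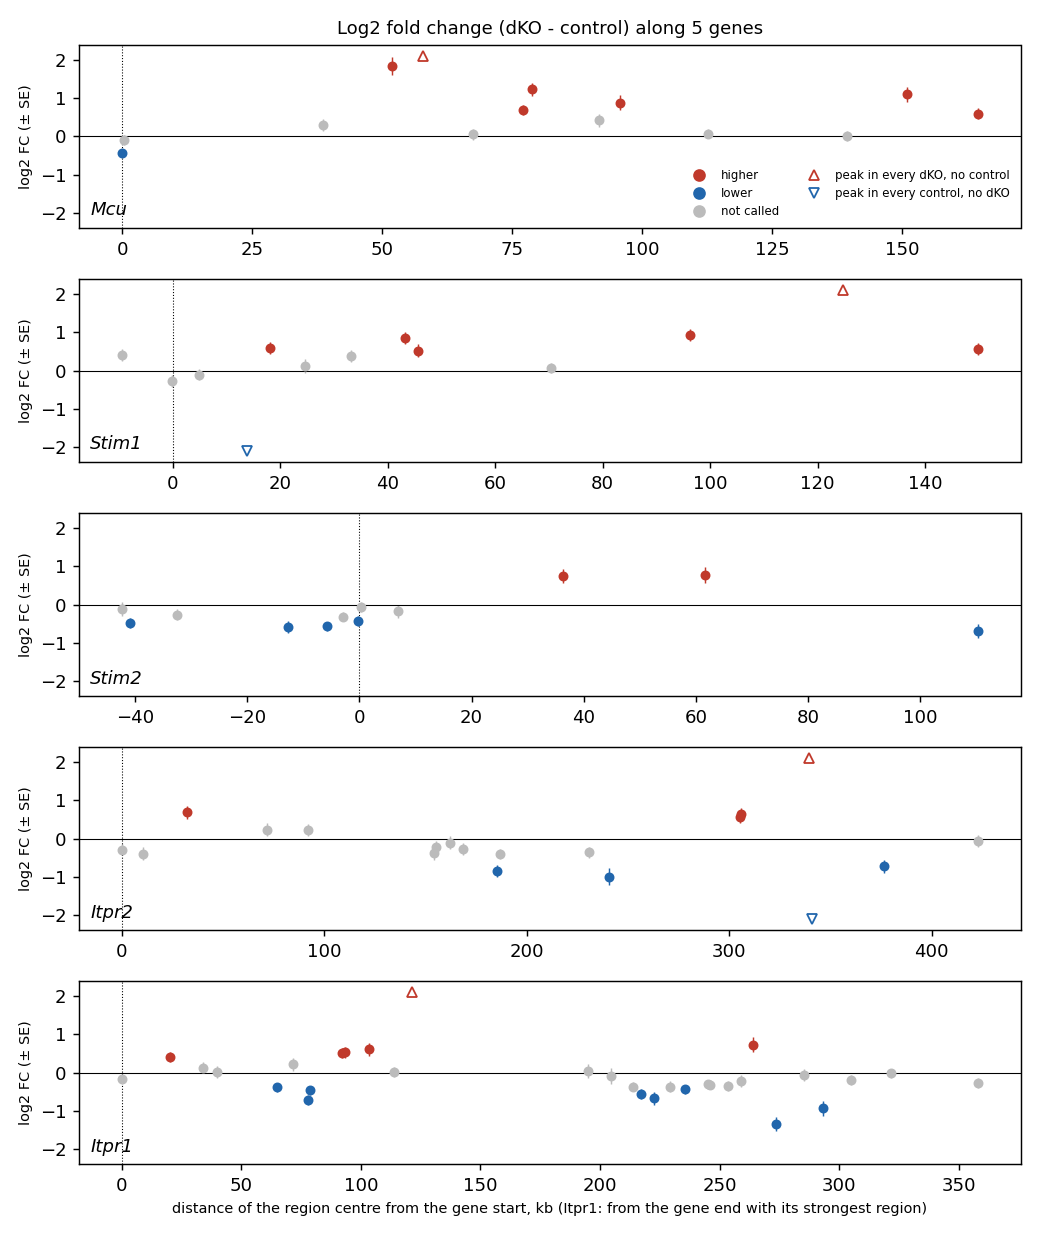
Log2 fold change (with SE) of shared regions by distance of the region centre from the gene start in kb, for Mcu, Stim1, Stim2, Itpr2 and Itpr1 (Itpr1: from the gene end with its strongest region). Triangles at the upper and lower edge mark regions with a peak in every library of 1 group and none of the other and have no fold change. Mcu and Stim1 rise inside the gene, Stim2 falls before its start, and at Itpr1 16 of the 18 values from 195 kb on are negative. Itpr1 regions called lower lie on both sides of its empty stretch, 3 of 12 before it and 5 of 18 after it.

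Among the IP3 receptor genes, Itpr1 (chromosome 6, 108213083 to 108551116) had the most regions, 62, of which 30 were shared, with 5 called higher and 8 lower. A stretch of 73.6 kb inside the gene, from 108334594 to 108408153, held no region, and the parts on either side of it differed. On the side with the strongest region, 4 of 12 shared regions rose and 3 fell, with a median log2 fold change of 0.07. Beyond the stretch, 1 of 18 rose and 5 fell, 16 of the 18 had a negative log2 fold change, and the median was -0.31 (-0.20 with cyclic loess). Background shares inside genes and away from starts were 10.7% higher and 10.5% lower. The split was made after the values had been seen and the difference was not tested.

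The largest change at Itpr1 was at 108486749 to 108486968, where the controls had 28.3, 25.2 and 24.9 and the dKO libraries 6.64, 9.25 and 12.9 (log2 fold change -1.34, SE 0.18, limma adjusted p = 0.00105). At 108506250 the values went from 31.9, 37.1 and 29.3 to 12.3, 12.5 and 25.7 (-0.93, adjusted p = 0.00562), with dKO 3 nearest to the controls. At 108291010 they went from 30.8, 27.3 and 24.7 to 16.4, 13.3 and 17.7 (-0.71, adjusted p = 0.00399). These 3 and the region at 108430006 (-0.56) kept their call in every alternative that tested them, and the 5 that fell besides the first 3 ranged from -0.38 to -0.67. The 5 regions that rose lay between 0.41 and 0.73. That at 108476930 had 16.2, 11.8 and 10.4 in controls and 25.6, 20.1 and 17 in dKO (0.73, adjusted p = 0.0230).

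The others that rose were at 108316502 (0.61; 13.5, 16 and 10 to 19.9, 18 and 20.4), 108306357 (0.53; 14.7, 21.2 and 18 to 24.4, 23.2 and 27.6), 108305254 (0.51; 18.8, 23.5 and 20.5 to 29.4, 28.6 and 28.6) and 108233139 (0.41; 25, 29.1 and 24 to 30.9, 30.5 and 39.2). All 5 that rose and 4 of the 8 that fell lost their call without dKO 1 (limma adjusted p = 0.0639 to 0.124) or without dKO 2 (0.0645 to 0.154). Without control 1 the calls at 108233139, 108278048, 108291643, 108305254, 108306357 and 108435654 were lost (0.0507 to 0.0870), without control 2 those at 108278048 and 108435654 (0.0536 and 0.0557), without control 3 those at 108233139, 108278048, 108316502 and 108476930 (0.0727 to 0.0972), and without dKO 3 those at 108233139 and 108278048 (0.0574 and 0.0765). Without centring 6 were lost and with quantile normalization 3. At the gene end at 108213083, where Itpr1 had its strongest region, the values were 83.7, 85.3 and 84.2 in controls and 67.1, 62.6 and 87 in dKO (-0.175, adjusted p = 0.249).

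Itpr2 (chromosome 6, 146108299 to 146502258) had 35 regions, of which 17 were shared, and its 6 calls lay 32.2 to 376.4 kb after the start. At 146316536 to 146316713 the controls had 26, 20.6 and 25.1 and the dKO libraries 12.1, 9.77 and 15.4 (log2 fold change -0.84, SE 0.15, limma adjusted p = 0.00288), and this call held in every alternative that tested it. At 146261194 the values went from 14.6, 12.4 and 22.3 to 6.24, 5.28 and 10.9 (-0.996, adjusted p = 0.00800), and at 146125711 from 21.1, 19 and 26.1 to 10.3, 9.88 and 17.9 (-0.73, adjusted p = 0.0126). The 3 regions that rose had lower control means (4.88 to 14.0) than the 3 that fell (16.4 to 23.9), though single values overlapped. That 32.2 kb after the start went from 4.31, 4.4 and 5.94 to 9.15, 7.32 and 7.65 (0.69, adjusted p = 0.0121). A neighbouring pair went from 7.13, 9.96 and 8.19 to 15.2, 11.2 and 12.7 (146195979, 0.64) and from 13.5, 14.7 and 13.8 to 23.2, 18.6 and 19.1 (146196674, 0.56). All but that at 146316536 lost their call without dKO 2 (limma adjusted p = 0.0578 to 0.106), and all but it and that at 146261194 without dKO 1 (0.0624 to 0.108). For the region at 146195979 the call was lost, too, if control 1 (0.0689) or control 3 (0.0549) was left out.

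Itpr3 (chromosome 17, 27057002 to 27122223) had 3 weak regions and 2 shared ones. The one 64.7 kb after its start had 6.49, 5.5 and 7.4 in controls and 12.2, 9.2 and 7.35 in dKO (0.55, SE 0.20, limma adjusted p = 0.0737), and was called higher only with the replicate number as a block or without dKO 3.

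Among the pump genes, 2 regions passed the test, both at Atp2b2 (16.7% of its 12 shared regions, background 19.8%). Atp2a2, the SERCA gene that refills the store (chromosome 5, 122453513 to 122502225), had 4 shared regions with log2 fold changes of -0.14 to 0.40. The highest of these, at 122454518 near the far end of the gene, had 18.7, 19.5 and 14.7 in controls and 22.7, 21 and 23.6 in dKO, without overlap (SE 0.14, limma adjusted p = 0.0657). It was called higher with quantile normalization, cyclic loess, the replicate block and in the 2 alternatives restricted to strong regions. A pair of regions that were not shared, at 122450917 and 122458237, is named after their values were seen. The former had 8.62 in control 1, no peak in control 2 and control 3, and 16.4, 19.2 and 22 in dKO, and the latter 8.68 in control 1 only and 18.9, 15.1 and 19.3 in dKO. Atp2b1, the main plasma membrane pump gene of many tissues (chromosome 10, 98914630 to 99026143), had 5 shared regions with log2 fold changes of -0.08 to 0.18. Its start had 103.8, 74.4 and 77.1 in controls and 72.9, 69.9 and 86.9 in dKO (-0.08, SE 0.13, not called). The second region there had 76.1, 80.5 and 77.9 and 68.7, 69.6 and 87.7 (-0.00, SE 0.11, adjusted p = 0.999). A p that misses the threshold does not show that the groups were equal.

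Atp2b2, a plasma membrane pump gene best known from neurons (chromosome 6, 113743831 to 114042613), had 12 shared regions, all inside the gene. At 113947640 to 113947854 the controls had 11.8, 12.3 and 11.2 and the dKO libraries 22.2, 21.6 and 21, with no overlap (log2 fold change 0.89, SE 0.15, limma adjusted p = 0.00244), and the call held in every alternative that tested it. At 113878613 the values went from 15.6, 17.9 and 10.8 to 8.74, 6.64 and 9.11 (-0.71, SE 0.19, adjusted p = 0.0188). That call was lost without control 1 (0.0608), control 2 (0.0702), dKO 1 (0.0538) or dKO 2 (0.0931). The strongest Atp2b2 region, at 113865796, had 32.4, 37.5 and 27.9 and 27.7, 27 and 34.1 and was not called (-0.07, adjusted p = 0.732).

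Outside the shared regions, 6 of the 234 (2.56%, background 1.57%) had a peak in every dKO and no control library, and 5 (2.14%, background 1.34%) in every control and no dKO library. A library that lacks a peak has no value in the files, which does not show closed chromatin. The strongest of the 6 lay inside Atp2b2 at 113897574 to 113897771, with 23.5, 12.4 and 21.1 in dKO. It lies between regions at 113896105 and 113908177 that were shared and not called. One inside Itpr1 at 108334382 had 12.9, 8.36 and 9.05, at the edge of the stretch without regions. The other 4 had means of 4.51 ± 1.22 in Mcu (59558676), 4.59 ± 0.54 in Itpr2 (146162624), 6.04 ± 0.12 in Stim1 (102392450) and 6.61 ± 1.46 in Atp2b2 (113771121; SD, n = 3 each).

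Of the 5 control peaks, 2 lay beyond the far end of Atp2b1, 11250 bp away at 99037293 (4.95, 4.93 and 5.21) and 21137 bp away at 99047155 (5.11, 5.55 and 4.49). Between them, a region at 99038934 had 11.2, 9.38 and 9.25 in controls, 6.38 in dKO 3 and no peak in dKO 1 and dKO 2. That region was singled out after its values were seen. The other 3 were in Stim1 (102281527, 6.89 ± 0.83), Atp2b2 (113962974, 5.22 ± 0.84) and Itpr2 (146160931, 3.80 ± 0.49), the last next to the Itpr2 region seen in dKO only. Without control 1 there were 14 dKO-only regions and without dKO 3 there were 23, and the control-only count was 8 without control 2 and 9 without dKO 3. With a library left out the pattern asks for less, so these counts could only stay or rise.

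The limit of 50 kb cut through no dense group of regions. The farthest region counted was 42361 bp from Stim2 (53956054, 17.4, 16.6 and 11.5 in controls and 14.3, 13.2 and 11.8 in dKO). The nearest one left out was 57073 bp from Atp2b1 (98857414), with 4.42 and 3.69 in control 1 and control 2, no peak in control 3, and 11.4, 10.6 and 8.2 in dKO.

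The other genes of calcium signalling were taken from a list of 88, which together held 324 shared regions. In these, 27 rose, 23 fell and 274 did not pass (15.4% called). The background was 19.8% called, 8.19% higher and 11.6% lower. The counts were 15 higher and 10 lower without dKO 1 and 12 and 7 without dKO 2, and the lower count was 15 without control 1 and 39 without dKO 3. The background with a library left out is not given. Store channels and pumps other than the 10 genes, such as the ryanodine receptors, had 0 of 33 higher and 2 lower (6.06% called). A region at 105556252, 35081 bp outside the Golgi pump gene Atp2c1, had 7.77, 8.62 and 12.1 in controls and 4.26, 3.45 and 6.38 in dKO (log2 fold change -0.83, limma adjusted p = 0.00757). Partners of store-operated entry had 1 of 23 higher, 9252 bp outside Saraf, and 2 lower (13.0% called). Of those 2, the region 5317 bp outside Cracr2a fell from 14.1 ± 1.0 to 6.59 ± 2.90 (-0.99, limma adjusted p = 0.00543), with SD over n = 3 each.

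Mitochondrial uptake and release genes had 2 of 43 higher and 1 lower (6.98% called, background 19.8%). Letm1, an inner membrane cation exchanger gene, had the 1 region that fell (42.3 ± 2.6 to 26.6 ± 5.9, log2 fold change -0.61, limma adjusted p = 0.00482; SD, n = 3 each).

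Genes of IP3 production and IP3 receptor regulation had 13 of 124 higher and 8 lower (16.9% called, background 19.8%). The largest named rise was inside Adra1b, the alpha-1B adrenergic receptor gene, at 43796456, from 4.26, 5.74 and 4.77 to 23.1, 17.1 and 13.3 (log2 fold change 1.71, SE 0.22, limma adjusted p = 0.000752). A region 608 bp from Ahcyl1, whose product binds and restrains IP3 receptors, fell from 53.3, 61.6 and 58.2 to 31.1, 26.8 and 42.5 (-0.73, adjusted p = 0.00214). At Avpr1a, the hepatic vasopressin receptor gene, both of its 2 shared regions fell, and this gene was picked after its values had been seen. Lumenal buffer and chaperone genes had 1 of 7 higher (7702 bp outside Canx) and 1 lower (inside Sdf4), or 28.6% called. Effector genes had 10 of 94 higher and 9 lower (20.2% called, near the background of 19.8%). Among them a region inside Camk1d rose from 5.02 ± 0.18 to 14.4 ± 2.9 (1.40, limma adjusted p = 0.000781). Another inside Camk2b fell from 44.3 ± 1.9 to 19.8 ± 5.6 (-1.095, limma adjusted p = 0.000657), with SD over n = 3 each. The Saraf and Canx calls were the least stable of those named, lost in 11 and 6 alternatives.

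Over the 6 libraries, the mean centred log2 value of the 30 shared Itpr1 regions was most like that of Prox1 (Pearson r = 0.989), Ostm1 (0.988) and Rassf3 (0.986), among 6148 genes with at least 3 shared regions. Each gene's 6 points come from the same 6 libraries, with the same depth and peak width behind a given point, and 142 genes had r above 0.9, so these names are a description only.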

How the data were processed

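ATAC-seq peak lists of 6 libraries (3 control, 3 dKO), 1 per library, were analysed. Reads were trimmed with Trim Galore 0.6.4, and Picard, SAMtools 1.10 and HOMER 4.11 were used with mm10, per the submitters' processing notes. What aligned the reads, how they were filtered or shifted and which options called peaks is not given in the sources used here. Per the file headers, the authors' columns hold a normalized tag count (signal, scaled to depth), the share of tags on the expected side of the centre (fraction), the peak finder's score, the fold against the local background (ratio) and its p-value, and a clonal ratio. In every deposited list the lowest score was 35.5 and the lowest local fold 4. The signal was analysed, and the score only served to filter. Depth is known only as tag steps, so count models were left out.

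Peaks sharing at least 1 bp were merged (chromosomes 1 to 19, X). A region's value in a library was its highest normalized tag count. Shared regions were tested as log2(value + 1), median-centred, by limma 3.58.1 (R 4.3.3, trended prior variance), group as the only term and 2-sided p-values adjusted over all 51749 regions. The fit was tested on simulated data. Gene spans came from RefSeq (GRCm38.p6), where all 10 genes and all 88 other names matched. Exons, introns and UTRs were not analysed here. Every gene is named with its counts. Regions named singly are those called, those with peaks in 1 group only, the strongest, and those at starts. For Itpr1 regions that fell, the 3 largest changes were to be given singly. Genes, lists and rules were chosen with earlier results of these data known. Some items are not reported here.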

Additional observations from a re-analysis of the deposited data

How the results depend on the processing

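None of the 40 called regions changed direction in the alternatives run. With a library left out this was all but fixed in advance, since the groups overlapped at none of the 40. Regions that did not pass could change sign, as those at the starts of Mcu (59616218), Atp2b1 (98914347) and Itpr1 (108212928) did with cyclic loess. Of the 40, 12 kept their call in every alternative that tested them and 28 lost it in at least 1, most often without dKO 2 (28) or dKO 1 (26). Without centring 13 were lost, with quantile normalization or cyclic loess 8 each, with a pseudocount of 5 or merging at 50 bp 0, and with the replicate block 0. The causes were not tested.

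The count of member regions that rose was 22, and 13 without centring, 9 where the region mean had to reach 20 and 8 with the better-scored peaks alone. With 1 library left out it was 7 to 23. The count that fell was 18, and 7 and 6 in the last 2 of these alternatives, which test fewer regions. With 1 library left out it was 5 to 24. Of the other calcium genes' regions, 27 rose, and 5 and 9 in the same 2 alternatives, with 12 to 35 when 1 library was left out. For those that fell, 23, the values were 10 and 10, and 7 to 39. Shares over all shared regions in these alternatives are not given, so these counts have no background beside them. The dKO-only count, 6, was 7 to 23 with 1 library left out. The control-only count, 5, was 3 with the better-scored peaks, 3 with links within 10 kb, and 5 to 9 with 1 library left out. Leaving a library out loosens both patterns, so that these 2 counts do not fall was fixed in advance. Their shares over all regions with a library left out are not given.

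With the replicate block, 25 member regions rose and 21 fell, and 36 and 29 of the other calcium genes' regions did, with no background share given. Equal numbers were not shown to mark paired animals. Deviations of same-numbered libraries correlated at 0.146, -0.0322 and 0.234, and of the controls only control 3 correlated best with its own number. At values near 5, which stand for about 82 to 104 tags, counting error limits what can be seen. Groups of 3 were too small for a test for outlying libraries.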
